A study of Mus musculus with 40 samples.

Results

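The 9 genes described here are regulators and surface markers of the satellite cell and of the myogenic program: *Pax3*, *Pax7*, *Myf5*, *Myf6*, *Myod1*, *Cd34*, *Sdc4*, *Met* and *Bcl2*. They were taken by name, through the Entrez gene of each probe set, from the 16475 probe sets of the arrays that are not controls, and each of the 9 was represented by 1 probe set. Signal intensities came from whole muscles of 20 male mice, and each mouse gave 2 arrays, 1 per muscle. The 4 groups were the gastrocnemius and the quadriceps of 10 mice on a high fat diet (HFD) and the gastrocnemius and the quadriceps of 10 mice on a low fat diet (LFD). All mice carried the strain label C56BL/6J, were 20 weeks old, had entered a low fat run-in period of 3 weeks at the age of 9 weeks, and had then received their diet for 8 weeks. The study set the muscles against each other in search of genes that specify muscle types, and set the diets against each other to see whether such genes respond to diet.

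Satellite cells are the resident stem cells of skeletal muscle and lie between the muscle fiber and its basal lamina. The paired-box factors *Pax7* and *Pax3* mark these cells and their embryonic precursors. On activation, the basic helix-loop-helix factors *Myf5* and *Myod1* commit them to the muscle lineage, while *Myf6* (also called *Mrf4*) is the member of this factor family that predominates in nuclei of mature fibers. *Met* is the receptor for hepatocyte growth factor, a signal that activates satellite cells. Syndecan-4 (*Sdc4*) and *Cd34* are surface molecules of quiescent satellite cells, *Cd34* being found on endothelium as well, and *Bcl2* protects cells from apoptosis.

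The 40 arrays were alike in overall signal, with medians between 8.8 and 9.4, and precision is limited by how many arrays there are. The tests covered the 6479 probe sets that averaged more than 20, and a difference counted as a call where it was larger than 1.3-fold with a false discovery rate (FDR) under 0.05. All 8 muscle fiber markers examined (among them *Acta1* and *Ckm*, skeletal actin and muscle creatine kinase) were over 20 and none was called between the muscles under either diet. Arrays differed in the signal of other cells and of slow fibers. The summed signal of 8 neutrophil markers ran from 41.1 to 49.6 in the HFD gastrocnemius and from 38.8 to 13184 in the HFD quadriceps. In LFD mice it ran from 40.3 to 48.3 in the gastrocnemius and from 40.2 to 2604 in the quadriceps. The sum of 7 slow fiber markers ran from 7353 to 12600 in the HFD gastrocnemius and from 268.1 to 5632 in the HFD quadriceps. In LFD mice that sum ran from 6004 to 13608 in the gastrocnemius and from 362.6 to 7977 in the quadriceps. The gastrocnemius also had more signal of slow fibers (6 of 7 markers called higher under each diet) and of Schwann cells (all 4 tested markers). It had less of adipocytes (2 of 6 called lower in HFD mice and 4 of 6 in LFD mice). Over all tested genes, calls between the muscles made up 3.46% in HFD mice and 2.52% in LFD mice. Of the 6 tested neutrophil markers, 3 were called lower in HFD mice and none in LFD mice. Their gastrocnemius group means ran from 3.71 (*Ltf*, HFD) to 8.55 (*Ngp*, LFD). These 6 passed the signal filter only through high quadriceps arrays, so the filter itself chose markers that were high there. Of the 9 fibroblast markers, 3 were called lower in HFD mice and 1 in LFD mice, with list medians of -0.10 and -0.03 on the log2 scale, and *Postn* (periostin) lay at 0.50 (limma adjusted p = 0.0647) and 0.74 (adjusted p = 0.072). The 1 tested B cell precursor marker was not called. The part of these cells in the results below was not tested. In whole muscle, fewer cells of a type and less RNA per cell cannot be told apart.

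Of the 9 genes, 4 passed the signal filter (*Myf6*, *Myod1*, *Cd34* and *Sdc4*) and 5 did not (*Bcl2*, *Pax3*, *Pax7*, *Met* and *Myf5*). *Myf6*, *Myod1* and *Cd34* were over 20 on all 40 arrays, *Sdc4* on 27 and *Myf5* on 10, whereas *Pax3*, *Pax7*, *Met* and *Bcl2* were over 20 on no array. The filter ran between *Sdc4*, with a mean of 23.1 over all arrays, and *Myf5*, with a mean of 16.99. *Pax7*, the gene that defines satellite cells, therefore gave no signal over the filter in either muscle, and so did the calcitonin receptor *Calcr*, another marker of quiescent satellite cells (highest array 9.1), and *Myog*, the differentiation factor myogenin (highest array 9.8). The satellite cell cadherin *Cdh15* lay between 49.1 and 77.2.

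None of the 4 tested genes was called between the muscles, where 3.46% of all tested genes were called in HFD mice and 2.52% in LFD mice. None was called between the diets either, where calls made up 0.216% of the tested genes for the gastrocnemius and 0.0617% for the quadriceps. The interaction of diet and muscle gave no call (0% of the 6479 tested genes) by limma, with 118 at an unadjusted p under 0.05 and none of the members among them. At that unadjusted level the muscle comparison held *Myf6* and *Sdc4* of the 4 tested members in HFD mice, beside 1209 of all tested genes (18.7%). In LFD mice it held *Myf6*, beside 1231 (19%). The diet comparisons held none of the 4, beside 581 genes (8.97%) in the gastrocnemius and 368 (5.68%) in the quadriceps. With the filter removed and the adjustment run over all 16475 probe sets, 0 of the 9 genes were called between the muscles, against 1.87% of all probe sets in HFD mice and 1.38% in LFD mice. *Myf6* in HFD mice passed by the FDR alone (1 of the 4 tested genes, against 6.62% of all tested genes). By the FDR alone and over all probe sets, *Myf6*, *Bcl2* and *Pax3* passed in HFD mice (3 of 9 genes, against 3.15% of all probe sets) and *Bcl2* passed in LFD mice (1 of 9, against 2.38%). Among the 4 tested genes, the median log2 fold change of gastrocnemius over quadriceps was 0.15 in HFD mice and 0.09 in LFD mice, beside medians of -0.02 and -0.01 over all tested genes.

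*Myf6*, the regulator of mature fibers, had signal intensities from 1523 to 2198 in the HFD gastrocnemius (median 1801), against 1382 to 1677 in the HFD quadriceps (median 1493). In LFD mice it lay between 1466 and 1882 in the gastrocnemius (median 1647), against 1295 to 1642 in the quadriceps (median 1478). The gastrocnemius was the higher muscle in all 10 HFD mice and in 9 of 10 LFD mice, mouse 141 being the exception, although the ranges overlapped: 7 HFD and 5 LFD gastrocnemius arrays were above every quadriceps array of their diet. The difference was 0.24 on the log2 scale in HFD mice (SE 0.063, 1.18-fold, limma adjusted p = 0.0231) and 0.19 in LFD mice (SE 0.055, 1.14-fold, limma adjusted p = 0.0519). Both fold changes were under the threshold of 1.3, with 95% intervals from 1.08 to 1.29 in HFD mice and from 1.05 to 1.23 in LFD mice. With the mouse as a block, which uses that both muscles came from the same animal, limma's adjusted p was 0.0101 in HFD mice and 0.0276 in LFD mice, so that the LFD difference then passed the FDR. Leaving out mouse 146, 149, 150, 157 or 158 took the HFD difference over an FDR of 0.05 (limma adjusted p between 0.0547 and 0.0608), and leaving out mouse 141 took the LFD difference under it (0.023). Over the other alternatives the LFD adjusted p ran from 0.016 to 0.0921, on both sides of 0.05.

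By mean signal, both gastrocnemius groups of *Myf6* (1775 ± 204 in HFD mice and 1663 ± 147 in LFD mice, SD, n = 10 each) lay above both quadriceps groups (1499 ± 108 in HFD mice and 1459 ± 108 in LFD mice). The neighbours in this order that share a muscle differed by less than their SD: HFD over LFD was 0.09 on the log2 scale in the gastrocnemius (SE 0.058, limma adjusted p = 0.738) and 0.04 in the quadriceps (SE 0.058, adjusted p = 0.998). *Myf6* was also among the steadier genes, with a within-group SD of 0.127 on the log2 scale, and 79% of the tested genes had a larger one. Its interaction of diet and muscle was 0.05 (SE 0.082, limma adjusted p = 1). *Myf5*, which is the direct neighbour of *Myf6* in the genome with no gene starting between them, gave a correlation with it of 0.06 over the 40 arrays (Pearson's r of log2 signals, given as a description).

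*Myod1*, the factor that commits satellite cells and that is also transcribed in fibers, had signal intensities from 28.0 to 111.7 in the HFD gastrocnemius (median 51.7), against 39.8 to 98.5 in the HFD quadriceps (median 63.0). LFD mice lay between 35.2 and 83.1 in the gastrocnemius (median 59.4), against 38.2 and 74.3 in the quadriceps (median 59.9). The groups overlapped almost entirely, and the gastrocnemius was the higher muscle in 3 of 10 HFD mice and 5 of 10 LFD mice. Gastrocnemius over quadriceps was -0.22 on the log2 scale in HFD mice (SE 0.211, limma adjusted p = 0.667), with a 95% interval of the fold change from 0.632 to 1.16, and -0.06 in LFD mice (SE 0.132, adjusted p = 0.882), with an interval from 0.793 to 1.16. The HFD interval thus took in a 1.3-fold decrease, and the LFD interval stayed inside 1.3-fold in both directions. HFD over LFD was -0.07 in the gastrocnemius (SE 0.181, limma adjusted p = 0.965) and 0.09 in the quadriceps (SE 0.181, adjusted p = 0.998).

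*Myod1* varied more between mice than the other tested members. Its within-group SD was 0.42 on the log2 scale, beside 0.289 for *Sdc4*, 0.133 for *Cd34* and 0.127 for *Myf6* and a median of 0.188 over the tested genes, of which 5.03% had a larger SD. This spread was shared by the muscles of HFD mice: mouse 149 had the highest signal in both (gastrocnemius 111.7, quadriceps 98.5), and mouse 152 the lowest in both (28.0 and 39.8). Over the 10 HFD mice the log2 signals of both muscles correlated with r = 0.841 (permutation p = 0.00094, 0.0169 after Benjamini-Hochberg adjustment over 18 relations, 9 genes in 2 diets) and Spearman's rho = 0.891 (permutation p = 0.0012, adjusted 0.0216). Without mice 149 and 152, which lay farthest from the median in the quadriceps, r was 0.745. In LFD mice r was 0.443 (permutation p = 0.226, adjusted 0.679) and rho 0.333 (permutation p = 0.351, adjusted 0.79), and r was 0.239 without mice 147 and 153; the difference between the diets was not tested. As a description, the same r had a median of -0.0076 over all tested genes in HFD mice, of which 0.679% lay above *Myod1*, and of 0.389 in LFD mice, of which 43.2% did.

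The other 17 relations did not pass the adjustment. *Myf6* gave r = 0.691 in HFD mice (permutation p = 0.0252, adjusted 0.227) with rho = 0.6 (permutation p = 0.0733, adjusted 0.44), and r = 0.577 without mice 144 and 145. *Pax3* gave r = 0.626 in HFD mice (permutation p = 0.0489, adjusted 0.245), rho = 0.615 (permutation p = 0.0645, adjusted 0.44) and r = 0.387 without mice 143 and 152. *Cd34* gave r = 0.635 in LFD mice (permutation p = 0.0544, adjusted 0.245), rho = 0.491 (permutation p = 0.158, adjusted 0.569) and r = 0.1 without mice 159 and 160, so that its r rested on those mice.

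**Figure D1:**
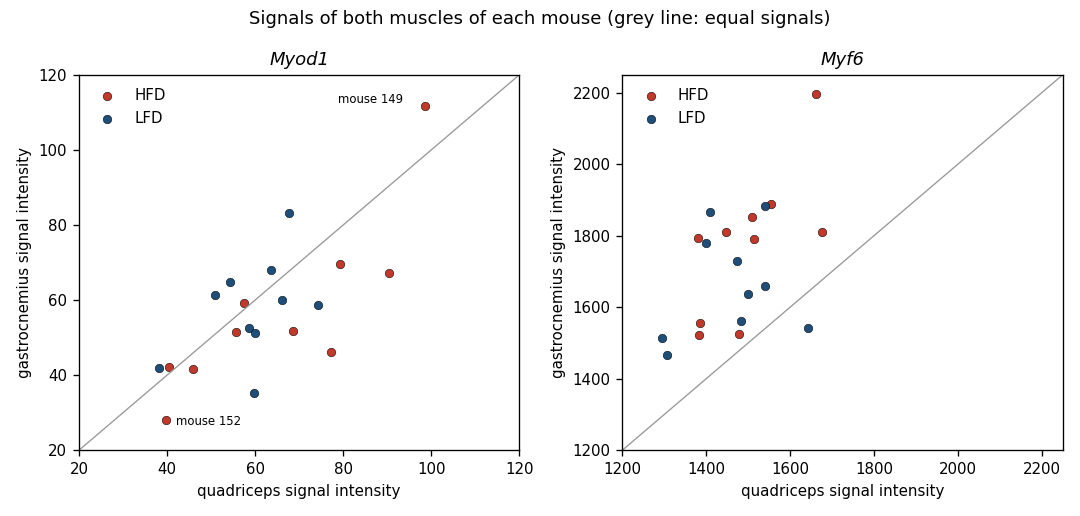
Signal intensity in the gastrocnemius (vertical axis) against the quadriceps (horizontal axis), linear scales, 1 point per mouse, for *Myod1* and *Myf6*; red points are HFD mice, blue points LFD mice, and the grey line marks equal signals. The HFD points of *Myod1* run from mouse 152 (28.0 and 39.8) to mouse 149 (111.7 and 98.5), and the points of *Myf6* lie above the line in 10 of 10 HFD and 9 of 10 LFD mice.

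*Cd34*, the sialomucin of quiescent satellite cells and endothelium, lay between 466.9 and 551.6 in the HFD gastrocnemius (median 523.5), against 425.8 and 592.6 in the HFD quadriceps (median 493.4). In LFD mice the gastrocnemius ran from 424.2 to 562.1 (median 468.6), against 391.5 to 530.8 in the quadriceps (median 441.5). All ranges overlapped, and the gastrocnemius was higher in 7 of 10 HFD and 9 of 10 LFD mice. Gastrocnemius over quadriceps was 0.07 on the log2 scale under both diets (SE 0.058 with limma adjusted p = 0.605 in HFD mice, SE 0.064 with adjusted p = 0.63 in LFD mice), and the 95% intervals of the fold change, from 0.966 to 1.14 in HFD mice and from 0.957 to 1.15 in LFD mice, stayed inside 1.3-fold. *Cd34* had the smallest unadjusted p for diet of the 9 genes: HFD over LFD was 0.11 in the gastrocnemius (SE 0.060, limma p = 0.0736, adjusted p = 0.624) and 0.11 in the quadriceps (SE 0.060, limma p = 0.0785, adjusted p = 0.963). Those intervals ran from 0.992 to 1.18-fold and from 0.991 to 1.17-fold.

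Of the 10 tested endothelial markers none was called between the diets by limma in either muscle. Their HFD over LFD ran from -0.0096 to 0.34 on the log2 scale in the gastrocnemius and from -0.09 to 0.26 in the quadriceps, with a median of 0.12 in both, beside medians over all tested genes of -0.02 (gastrocnemius) and -0.01 (quadriceps). The summed signal of 12 endothelial markers, which include *Pecam1*, *Cdh5* and *Kdr*, ranged from 1546 to 1958 in the HFD gastrocnemius and from 1449 to 1664 in the LFD gastrocnemius, and from 1392 to 1770 in the HFD quadriceps and from 1250 to 1763 in the LFD quadriceps. The highest value was that of the endothelial sialomucin *Emcn* in both muscles (SE 0.128, limma adjusted p = 0.321 in the gastrocnemius and 0.872 in the quadriceps). Their part in the *Cd34* values was not tested.

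*Sdc4*, a heparan sulfate proteoglycan that serves growth factor receptors, had signal intensities close to the filter. It lay between 19.2 and 33.1 in the HFD gastrocnemius (median 25.7), against 17.0 and 24.3 in the HFD quadriceps (median 20.8), and between 18.4 and 34.3 in the LFD gastrocnemius (median 22.7), against 15.8 and 35.1 in the LFD quadriceps (median 21.3). The ranges overlapped, but 6 HFD gastrocnemius arrays were above every HFD quadriceps array, whereas none of the LFD gastrocnemius arrays was above every LFD quadriceps array. The gastrocnemius was higher in 8 of 10 HFD mice (0.27 on the log2 scale, SE 0.103, limma p = 0.0158, adjusted p = 0.137) and in 5 of 10 LFD mice (0.11, SE 0.139, adjusted p = 0.763). The interaction was 0.16 (SE 0.178, limma adjusted p = 1), so that a difference of the muscle effect between the diets was not detected. HFD over LFD was 0.09 in the gastrocnemius (SE 0.126, adjusted p = 0.936) and -0.08 in the quadriceps (SE 0.126, adjusted p = 0.998), both by limma.

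**Figure D2:**
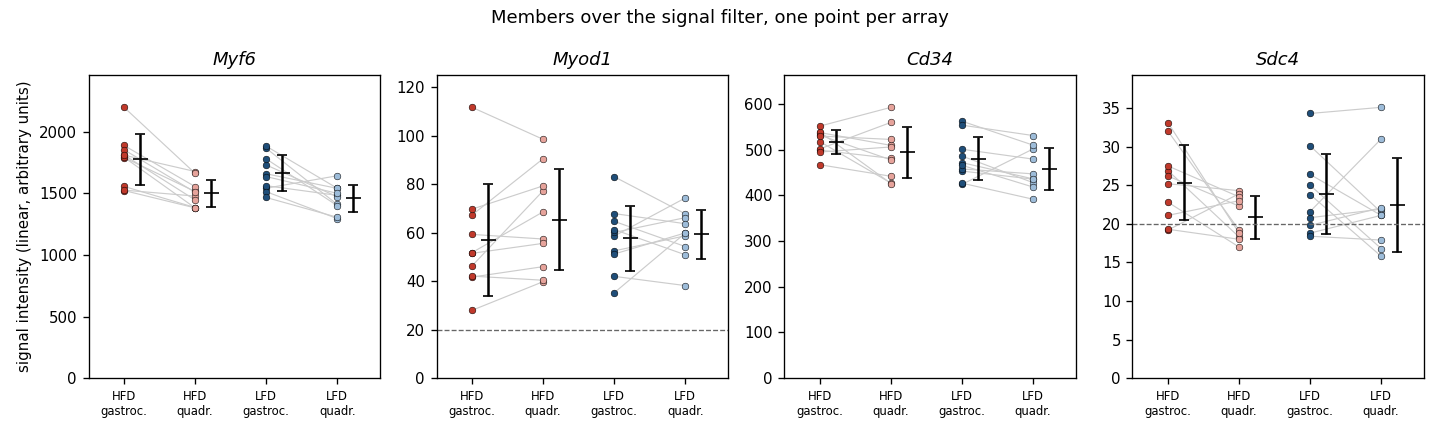
Signal intensity (linear scale from 0) of *Myf6*, *Myod1*, *Cd34* and *Sdc4*, 1 point per array, in the HFD gastrocnemius, HFD quadriceps, LFD gastrocnemius and LFD quadriceps. Grey lines join both muscles of a mouse, and black marks are mean ± SD (n = 10). The dashed line, drawn for *Myod1* and *Sdc4* only, is the signal filter of 20. *Myf6* is higher in the gastrocnemius of 10 HFD and 9 LFD mice, and the ranges of the muscles overlap for each gene under both diets.

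The 5 genes under the filter were compared with the adjustment over all 16475 probe sets, and the size of their fold changes depends on how background was removed. *Bcl2*, the survival factor, gave signals of only 7.4 to 10.5 in the HFD gastrocnemius (median 8.6), against 5.7 to 8.2 in the HFD quadriceps (median 7.0), and of 7.7 to 10.2 in the LFD gastrocnemius (median 8.85), against 5.3 to 8.4 in the LFD quadriceps (median 7.0). It was higher in the gastrocnemius of all 20 mice, and 6 HFD and 7 LFD gastrocnemius arrays exceeded every quadriceps array of their diet. The difference was 0.34 on the log2 scale in HFD mice (SE 0.078, 1.26-fold, limma adjusted p = 0.0144) and 0.35 in LFD mice (SE 0.076, 1.27-fold, adjusted p = 0.0121), under the threshold of 1.3 in both. With 16 added to every signal, which damps values near background, the differences were 0.11 in HFD mice (limma adjusted p = 0.0179) and 0.11 in LFD mice (adjusted p = 0.0133). No diet difference of *Bcl2* passed the test: HFD over LFD was -0.04 in the gastrocnemius (SE 0.077, adjusted p = 0.991) and -0.03 in the quadriceps (SE 0.077, adjusted p = 0.998).

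*Pax3* ran the other way. Its signals lay between 3.7 and 4.8 in the HFD gastrocnemius (median 4.05), against 3.8 and 6.1 in the HFD quadriceps (median 5.2), and between 3.7 and 4.6 in the LFD gastrocnemius (median 4.4), against 4.2 and 5.7 in the LFD quadriceps (median 4.95). The gastrocnemius was the lower muscle in all 10 HFD mice and in 9 of 10 LFD mice, the last having equal signals, and the ranges overlapped. Gastrocnemius over quadriceps was -0.31 on the log2 scale in HFD mice (SE 0.081, limma adjusted p = 0.0386) and -0.21 in LFD mice (SE 0.060, adjusted p = 0.0672). In HFD mice the adjusted p stayed under 0.05 only when mouse 145 or 152 was the one left out (0.0436 and 0.0154), and it was at most 0.116 for the others. With 16 added it was 0.0514, for a difference of -0.07. In LFD mice the alternatives ran from 0.0294, with array weights, to 0.189, without mouse 147. HFD over LFD was -0.04 in the gastrocnemius (SE 0.071, limma adjusted p = 0.991) and 0.06 in the quadriceps (SE 0.071, adjusted p = 0.998).

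*Pax7* stayed between 2.9 and 5.9 on all arrays. Its medians were 4.1 in the HFD gastrocnemius, against 3.75 in the HFD quadriceps, and 3.9 in the LFD gastrocnemius, against 4.0 in the LFD quadriceps, and the gastrocnemius was higher in 8 of 10 HFD mice and 4 of 10 LFD mice. Neither muscle difference passed (0.14 on the log2 scale, SE 0.077, limma adjusted p = 0.473 in HFD mice; 0.01, SE 0.086, adjusted p = 0.982 in LFD mice). The 95% intervals of the fold change ran from 0.988 to 1.23 in HFD mice and from 0.889 to 1.14 in LFD mice, on signals so near background that a difference in the transcript may not be seen in them.

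*Myf5*, the earliest of the myogenic factors in the embryo, had medians of 15.9 in the HFD gastrocnemius (9.6 to 25.4), against 16.4 in the HFD quadriceps (11.2 to 23.2). In LFD mice they were 16.25 in the gastrocnemius (10.3 to 33.1), against 15.1 in the quadriceps (11.4 to 26.3). Mouse 142 was the highest of the LFD mice in both muscles, and 10 arrays in all were over 20, 4 of them of the LFD gastrocnemius. The muscle difference was -0.06 on the log2 scale in HFD mice (SE 0.150, limma adjusted p = 0.941) and 0.13 in LFD mice (SE 0.214, adjusted p = 0.862), with 95% intervals of the fold change from 0.773 to 1.19 in HFD mice and from 0.806 to 1.49 in LFD mice.

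*Met*, the receptor of hepatocyte growth factor, had the widest spread of the 9 genes, with a within-group SD of 0.534 on the log2 scale. Its medians were 6.1 in the HFD gastrocnemius (3.2 to 13.0), against 6.8 in the HFD quadriceps (4.5 to 13.2), and 5.45 in the LFD gastrocnemius (3.6 to 10.9), against 7.55 in the LFD quadriceps (3.8 to 14.2). Mouse 146 in the HFD gastrocnemius and mouse 143 in the HFD quadriceps stood well above the other arrays of their group, and all groups overlapped. The muscle difference was -0.18 in HFD mice (SE 0.202, limma adjusted p = 0.818) and -0.29 in LFD mice (SE 0.232, adjusted p = 0.647). For *Pax7*, *Myf5* and *Met* no diet difference passed either, the limma adjusted p lying at 0.976 or above, and the interaction gave an adjusted p of 1 for all 9 genes.

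**Figure D3:**
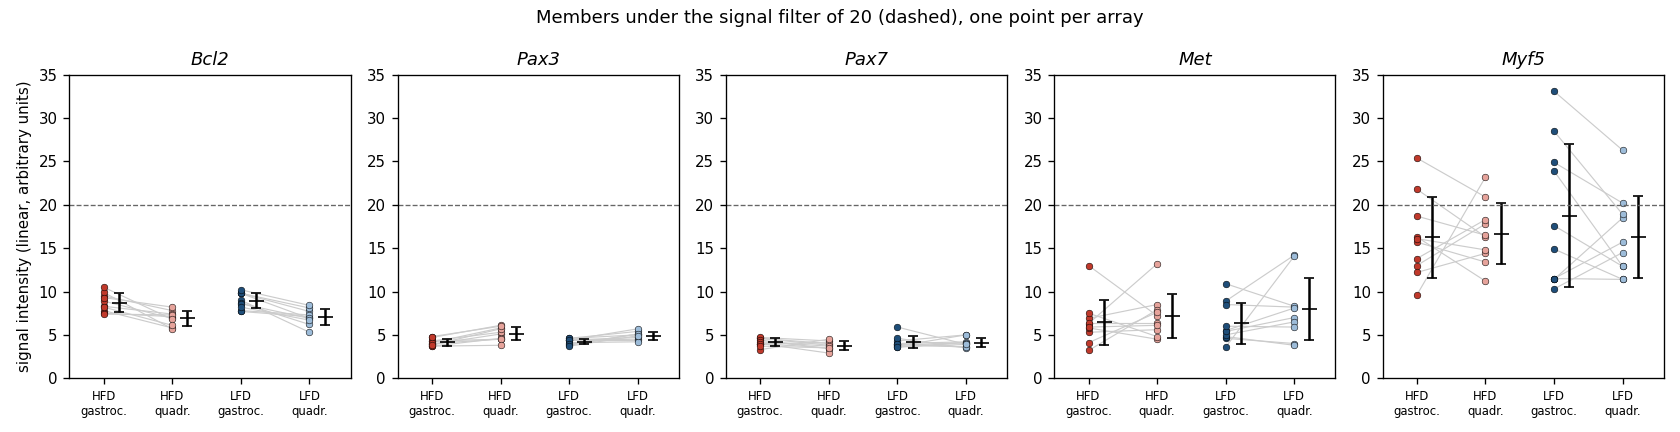
Signal intensity (linear scale from 0 to 35) of *Bcl2*, *Pax3*, *Pax7*, *Met* and *Myf5*, 1 point per array, in the same 4 groups and with the same marks (mean ± SD, n = 10; lines join both muscles of a mouse; dashed line at the filter of 20). Only *Myf5* has arrays over 20 (10 of 40), and the small shifts of *Bcl2* (higher in the gastrocnemius of 20 mice) and *Pax3* lie far under the line.

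**Figure D4:**
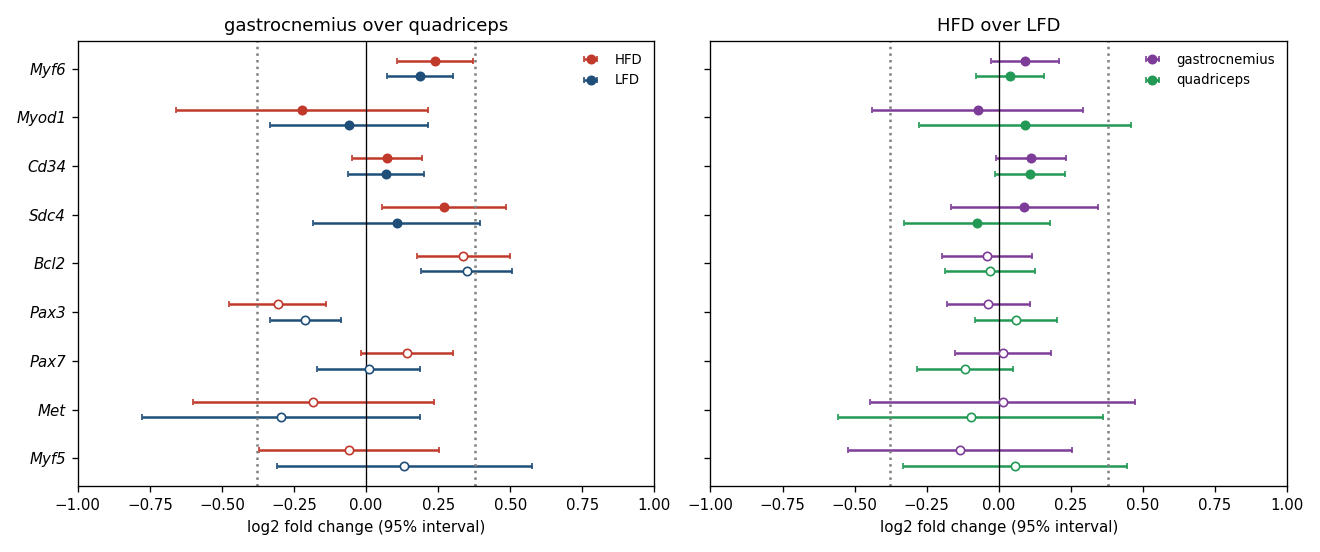
Log2 fold change with its 95% interval (horizontal axis) for the 9 genes, gastrocnemius over quadriceps on the left (HFD red, LFD blue) and HFD over LFD on the right (gastrocnemius purple, quadriceps green); filled points were tested over the filter, open points lie under it, and dotted lines mark 1.3-fold. On the left the intervals of *Myf6*, *Bcl2* and *Pax3* lie on 1 side of 0 under both diets, and on the right every interval includes 0.

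The 9 genes were also set against each other across arrays. Over the 40 arrays Pearson's r of log2 signals between pairs of the 9 genes, given as a description since groups and arrays are shared, ran from -0.552 (*Bcl2* and *Pax3*) to 0.618 (*Bcl2* and *Myf6*). After the group means were subtracted these were -0.164 and 0.331, whereas *Bcl2* and *Met* stayed at -0.576 (-0.549 before). *Bcl2*, *Pax3* and *Met* are all under the filter. *Myod1* and *Myf6* were at 0.382 after subtraction, and at 0.157 before.

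For each gene over the filter, the 3 tested genes with the most similar pattern over the 40 arrays were looked up by the same r. Taking the highest values out of 6479 tested genes by itself favours a high r, and no relation between these genes was tested. *Myf6* was most like *Ugp2*, the enzyme that makes UDP-glucose for glycogen (r = 0.754), *Tmem100* (0.748) and the prolyl hydroxylase *Egln3* (0.746), with 0.528, 0.581 and 0.433 once group means were subtracted. *Myod1* was most like *Osgin1* (0.694), *Snapc2*, a subunit of the complex that activates small nuclear RNA genes (0.673), and the deubiquitinase *Usp2* (0.648), with 0.695, 0.67 and 0.64 after subtraction. The pattern of *Cd34* was nearest to those of the tetraspanin *Cd9* (0.666), the heparan sulfatase *Sulf2* (0.641) and the annexin *Anxa3* (0.63), with 0.605, 0.658 and 0.618 after subtraction. *Sdc4* lay nearest to *Nol3*, a repressor of apoptosis (0.68), *Zfp639* (0.643) and the prefoldin subunit *Pfdn2* (0.64), with 0.64, 0.644 and 0.617 after subtraction. Subtraction of the group means thus lowered r for all 3 neighbours of *Myf6* and left it nearly as it was for those of *Myod1*, *Cd34* and *Sdc4*.

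The 12 lists of partners, targets and further markers held 105 genes on the array that are not members, of which 44 were tested. Of these 44, 2 were called between the muscles in HFD mice (4.55%, against 3.46% of all tested genes) and 1 in LFD mice (2.27%, against 2.52%). Of the 61 under the filter, 2 (*Musk* and *Twist1*) were called under both diets when all probe sets were tested. Calls then made up 1.87% of all probe sets in HFD mice and 1.38% in LFD mice. Of the 2 tested *Mef2* factors, the 2 tested E proteins (*Tcf4* and *Tcf12*, partners of the myogenic factors) and the 2 tested Notch genes (*Notch2* and *Jag2*), none was called in any comparison, the smallest limma adjusted p being 0.216. Among the 4 tested Id inhibitors and bHLH repressors, *Hes1*, a Notch target that represses myogenic transcription, was higher in the gastrocnemius of HFD mice, at 58.8 ± 20.0, against 38.1 ± 8.29 in the quadriceps (SD, n = 10 each). Its difference was 0.58 on the log2 scale (SE 0.16, limma adjusted p = 0.029, higher in 9 of 10 mice). In LFD mice *Hes1* was at 51.4 ± 6.64 in the gastrocnemius, against 40.4 ± 7.34 in the quadriceps (0.35, SE 0.095, limma adjusted p = 0.0307, higher in 10 of 10), which is under 1.3-fold. *Twist1*, a repressor of the same list that is under the filter, went the other way, at 6.3 ± 0.874 in the HFD gastrocnemius, against 10.3 ± 1.82 in the HFD quadriceps (-0.70, SE 0.096, limma adjusted p = 6.44e-05 over all probe sets). In LFD mice it was at 6.17 ± 0.944 in the gastrocnemius, against 11.3 ± 2.82 in the quadriceps (-0.85, SE 0.124, limma adjusted p = 0.000317).

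Of the 17 genes listed as other satellite cell markers, 9 were tested and 1 was called, in LFD mice, where calls made up 2.52% of all tested genes. *Chodl* (chondrolectin) was lower in the LFD gastrocnemius, at 59.7 ± 12.8, against 79.2 ± 9.47 in the LFD quadriceps (-0.43 on the log2 scale, SE 0.107, limma adjusted p = 0.0196, lower in 9 of 10 mice). In HFD mice it was at 67.4 ± 8.08 in the gastrocnemius, against 84.1 ± 30.5 in the quadriceps (-0.24, SE 0.162, limma adjusted p = 0.485). *Cdh15*, *Itga7* and *Des*, which satellite cells share with other cells of the muscle lineage, were not called. *Ly6a*, with a mean of 837.4, was among the 9 tested genes and is listed as a fibroblast marker as well. The count of calls and the median of this list therefore do not describe satellite cells alone. The median over the 9 tested markers was 0.05 in HFD mice and 0.00 in LFD mice.

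Among targets of myogenic factors, the acetylcholine receptor subunit *Chrna1* was higher in the gastrocnemius of all 20 mice. Its signal was 79.8 ± 13.3 in the HFD gastrocnemius, against 58.6 ± 12.1 in the HFD quadriceps (0.46 on the log2 scale, SE 0.110, limma adjusted p = 0.0135, called), and 76.9 ± 7.18 in the LFD gastrocnemius, against 61.1 ± 12.3 in the LFD quadriceps (0.35, SE 0.102, adjusted p = 0.0458, under 1.3-fold). The subunit *Chrnb1* passed the FDR under both diets (0.30, limma adjusted p = 0.00276 in HFD mice; 0.28, adjusted p = 0.0108 in LFD mice) at 1.24-fold and 1.21-fold. The other 8 of the 10 tested targets did not pass the FDR, and the median over the 10 was 0.09 in HFD mice and 0.07 in LFD mice. By the FDR alone, 6.62% of all tested genes passed in HFD mice and 5.22% in LFD mice. *Musk*, the receptor kinase of the neuromuscular junction, had a mean of 19.1, just under the filter, and the largest difference of the listed targets. It was at 26.8 ± 6.56 in the HFD gastrocnemius, against 11.7 ± 2.13 in the HFD quadriceps (1.17, SE 0.133, limma adjusted p = 6.25e-06 over all probe sets, higher in 10 of 10 mice), and at 25.0 ± 7.26 in the LFD gastrocnemius, against 13.1 ± 7.54 in the LFD quadriceps (1.02, SE 0.208, adjusted p = 0.00681, higher in 9 of 10).

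Around *Met*, 1 of 8 ligands and activators was tested (*Hpn*), and *Hgf*, the ligand itself, was at 3.0 to 4.6 on all arrays. None of 5 tested signaling adaptors was called, the smallest limma adjusted p being that of *Pik3r1*, the regulatory subunit of PI3-kinase, in LFD mice (-0.35, SE 0.114, adjusted p = 0.077). *Pik3r1* was lower in the gastrocnemius of 10 of 10 LFD mice and 5 of 10 HFD mice. The values of the partner genes come from fits without the mouse as a block, which leave the pairing unused. Around *Sdc4*, 6 syndecans and partners were tested and none was called, with *Prkca*, the protein kinase C that syndecan-4 binds, at -0.32 in LFD mice (SE 0.105, limma adjusted p = 0.0815). The 1 tested relative of *Cd34*, *Podxl2*, was not called. Of the *Bcl2* family, 1 survival factor (*Mcl1*) and 3 death factors were tested with no call, and *Bnip3l* gave the smallest limma adjusted p (0.0791, -0.18 in HFD mice). In the diet comparisons and the interaction none of these genes was called.

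**Figure D5:**
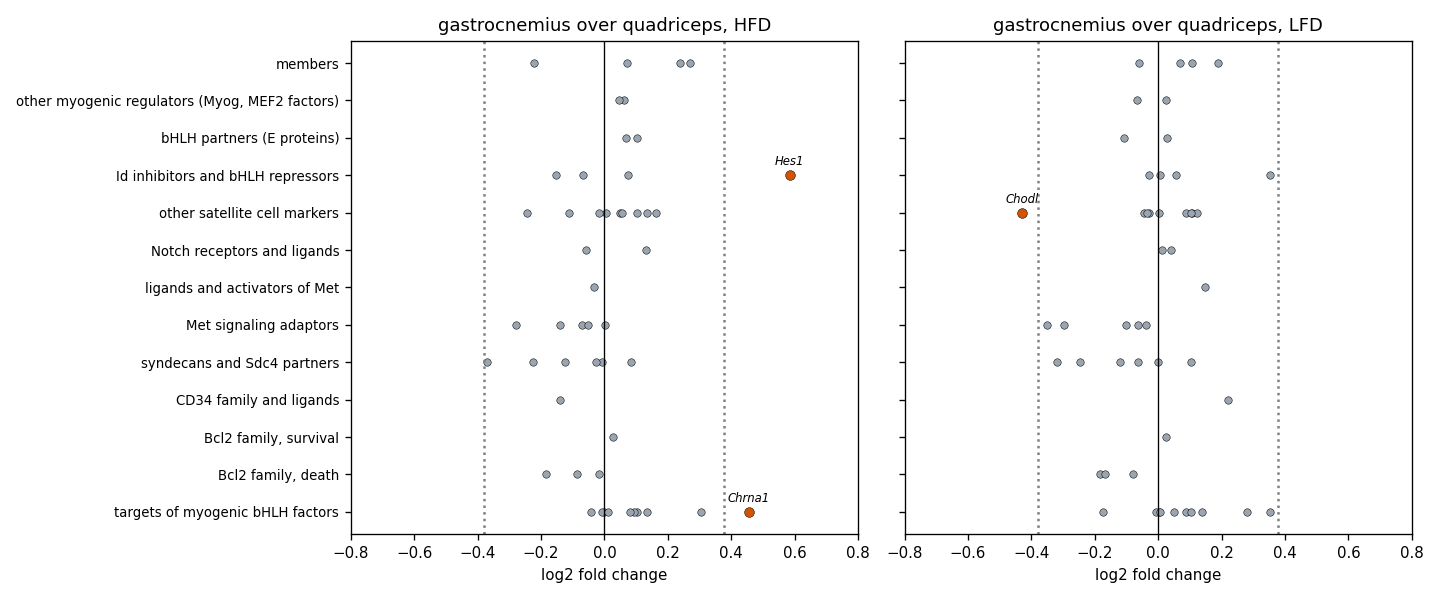
Log2 fold change of gastrocnemius over quadriceps (horizontal axis), HFD mice on the left and LFD mice on the right, for each tested gene of the lists named on the vertical axis, the first being the 9 genes described here; 1 point per gene, orange points with a name were called, and dotted lines mark 1.3-fold. The called genes are *Hes1* (0.58) and *Chrna1* (0.46) in HFD mice and *Chodl* (-0.43) in LFD mice.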

How the data were processed

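Groups and mouse numbers came from the sample labels. The authors deposited linear signal intensities, for which they had assigned probes to 1 probe set per Entrez gene, normalized by quantiles and estimated expression with GC-RMA (version: not given in the sources used here). For each array, the extraction protocol in the labels names the quadriceps; title, source name and tissue label, which name the same muscle for an array, were used instead. Of 16539 probe sets, 64 controls were left out; 16229 of the rest had a RefSeq symbol (assembly GRCm38.p6, used for names and gene neighbours only), 28 a platform symbol alone and 218 none. No arrays were identical, and arrays correlated between 0.985 and 0.997.

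Log2 of the deposited values entered limma 3.58.1 (R 4.3.3; lmFit, eBayes) without a block: the muscles within each diet, the diets and the interaction in a model of the 4 groups. Probe sets with a mean over 20 on the 40 arrays were tested, with Benjamini-Hochberg adjustment, and called past 1.3-fold with the FDR under 0.05 (the interaction by FDR alone). Geometric means underlie the fold changes. The scripts were tested on simulated data.

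The muscles of a mouse are paired by its number. Within a mouse, deviations from the group mean correlated with a median of -0.069 in HFD mice and 0.39 in LFD mice, and between mice with -0.0059 and -0.053. Correlations were tested two-sided with 100000 permutations (scipy 1.17.1, numpy 2.4.6, pandas 2.3.3, matplotlib 3.10.9, Python 3.11.15).

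The 9 genes and the 20 other lists were chosen with earlier results of these data known. Named from the lists were the called genes and up to 3 genes with the smallest adjusted p over the 5 comparisons. For each tested member the 3 genes with the highest r were named. *Calcr*, *Myog*, *Cdh15*, *Hgf* and marker genes are named for their level, and *Itga7* because other cells of the muscle lineage share it. *Musk*, *Twist1* and *Postn* were named after their values were seen. *Fgf6*, *Bnip3*, *Plin1* and 6 other listed genes were not matched to a probe set and not analysed here. Alternatives were other signal filters, the mouse as a block, repeated normalization, centring, an added 16, other variance models, array weights, the 4-group model, the FDR alone and leaving out each mouse.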

Additional observations from a re-analysis of the deposited data

Results flagged for a closer look

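In 4 of 36 groups of 10 arrays (9 genes in 4 groups), 1 array lay farther from its neighbour than Dixon's 95% limit allows. The ratio was taken on linear signals, and the rate of about 1 in 20 groups by chance holds for normally distributed values. On the log2 scale of the tests, where a high array lies relatively closer to its neighbour, the ratio was not taken. The count of 4 is therefore not read as an excess. *Myod1* of mouse 149 was at 111.7 in the HFD gastrocnemius, with the next array at 69.7; the quadriceps of this mouse was also the highest of its group, at 98.5. *Met* of mouse 146 was at 13.0 in the HFD gastrocnemius (next 7.5), and *Met* of mouse 143 was at 13.2 in the HFD quadriceps (next 8.5). *Pax7* of mouse 156 was at 5.9 in the LFD gastrocnemius (next 4.6). The signals of *Met* and *Pax7* are under the filter of 20.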

How the results depend on the processing

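Of 1126 values of the 9 genes under the alternatives, 1080 kept their direction and whether the gene was called, 4 became calls and 42 changed sign. The adjusted p crossed 0.05 with no change of call in 25: *Myf6* in HFD mice 5 times and *Pax3* in HFD mice 9 times to above it, and *Myf6* in LFD mice 9 times and *Pax3* in LFD mice 2 times to below it. By the FDR alone, with no limit on the fold change, *Bcl2* (0.34 in HFD mice and 0.35 in LFD mice), *Pax3* (-0.31 in HFD mice) and *Myf6* (0.24 in HFD mice, the 1 tested member) became calls, and the genes called were 429 in HFD and 338 in LFD mice between the muscles, and 44 in the gastrocnemius and 12 in the quadriceps between the diets. Array weights gave 46 and 2 diet calls in the gastrocnemius and the quadriceps; leaving out 1 mouse gave 9 to 19 and 1 to 10. The mouse as a block, fixed or random, moved *Myf6* in LFD mice under an FDR of 0.05 (adjusted p = 0.0276 and 0.016, difference 0.19) and took no other of the 9 genes across that line or to a call.

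Repeated quantile normalization turned the muscle difference of *Pax7* in LFD mice to -0.016 and the interaction of *Bcl2* to 0.0067, and array weights turned the interaction of *Cd34* to -0.034. With 1 mouse left out, log2 differences crossed 0 for gastrocnemius over quadriceps of *Myf5* in HFD mice (-0.13 to 0.075) and of *Myod1* (-0.098 to 0.019) and *Pax7* (-0.057 to 0.058) in LFD mice. They also crossed it for HFD over LFD in the gastrocnemius of *Met* (-0.11 to 0.12), *Myod1* (-0.19 to 0.030) and *Pax7* (-0.0057 to 0.074), and in the quadriceps of *Bcl2* (-0.074 to 0.00036), *Met* (-0.20 to 0.0084) and *Sdc4* (-0.13 to 0.00061). The interaction crossed it for *Bcl2* (-0.062 to 0.035), *Cd34* (-0.033 to 0.027) and *Met* (-0.074 to 0.24). The cause was not tested. Signals near background limit what can be said of the 5 genes under the filter.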
